A study of Macaca mulatta with 24 samples.

Results

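The genes described are the 7 GABA-A receptor subunit genes GABRA2, GABRA3, GABRA4, GABRA5, GABRB1, GABRB2 and GABRD, taken by symbol from the 17208 genes listed in RNA-Seq of the nucleus accumbens (NAcc) core. The NAcc core is the ventral striatal region in which reward and motivation are coupled to action. All 7 had a mean of at least 1 TPM (a length-normalised share of the total RNA), the level required for testing, which 13637 genes reached. The animals were 24 unrelated adult male rhesus macaques, each measured once. After a period of schedule-induced drinking, 16 of them drank ethanol voluntarily under daily open access with no imposed abstinence, and 8 controls received water and maltose dextrin instead. Drinkers were labelled by category as LD (low and binge drinkers, n = 8, intake 1.58 ± 0.53 g/kg per day, mean ± SD), HD (heavy, n = 4, 2.92 ± 0.16 g/kg) and VHD (very heavy, n = 4, 3.37 ± 0.29 g/kg). HD and VHD animals together are called HD* (n = 8). Each sample was a dissected tissue piece and not a sorted cell type, so fewer cells of a type and less RNA per cell cannot be told apart.

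GABA-A receptors are pentameric chloride channels opened by GABA, the main inhibitory transmitter of the brain. The α subunits shape the affinity for GABA and for benzodiazepines, the β subunits complete the GABA site, and a γ or δ subunit usually decides whether a receptor sits at the synapse or outside it. Receptors with a δ subunit, and many with α5, lie outside the synapse and carry a steady, tonic inhibition. Most neurons of the striatum are medium spiny neurons, which are themselves GABAergic, and GABA-A receptors are among the long-studied targets of ethanol.

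The libraries differed in their levels of cell type markers, and 1 library stood apart. Control 6 held the lowest level of striatal neuron markers, with the DARPP-32 gene PPP1R1B at 304 TPM against 1051 to 3926 TPM in the other animals and the D1 receptor gene DRD1 at 8.14 TPM against 53.4 to 274 TPM. The summed level of the 10 striatal neuron markers was 739 TPM in that animal and 2565 to 11202 TPM in the others, with all 10 markers detected. Its summed pan-neuronal markers were 2527 TPM beside a median of 2558 TPM over all animals, but the genes in the sum went different ways. STMN2 (923 TPM) and NEFL (351 TPM) were the highest of any animal, and RBFOX3 (56.5 TPM) was the lowest. SNAP25 (934 TPM) and SYT1 (263 TPM) lay below the medians of the other animals (1345 and 344 TPM). Control 6 also held the highest summed oligodendrocyte markers, 9850 TPM, with LD 5 next at 6579 TPM. The same was true of astrocyte markers, 7782 TPM, with VHD 2 next at 6032 TPM. GFAP gave 6255 TPM of that sum in control 6, and SLC1A3 alone of the astrocyte markers lay below the median of the other animals (730 against 851 TPM). SLC17A7, the vesicular glutamate transporter of cortical excitatory neurons, ranged from 0.866 to 722 TPM across animals. Values without control 6 are given beside the results that it moved most. The number of reads behind each TPM value is not held in the table, so no counting error can be attached to the levels.

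GABRA5 and GABRD were the most abundant of the 7 subunit mRNAs. On the TPM scale GABRA5, encoding α5, averaged 389.8 ± 106 TPM (SD, n = 24; lowest 45.0, median 411, highest 529). GABRD, encoding δ, averaged 180.3 ± 71.5 TPM (lowest 14.5, median 184, highest 320.5). The other 5 genes lay well below, with GABRB2 (β2) at 46.5 ± 16.7, GABRA3 (α3) at 40.4 ± 14.8, GABRB1 (β1) at 35.0 ± 10.6, GABRA2 (α2) at 31.3 ± 8.71 and GABRA4 (α4) at 17.7 ± 7.55 TPM. GABRA4, a frequent partner of δ, had the lowest level of the 7, from 2.37 to 33.8 TPM. Neighbours in this order were compared within animals by a paired sign-flip permutation test of log2(TPM + 1), adjusted over 6 pairs. The order was taken from the same animals, and the test does not cover error in the gene lengths, which are not known here. GABRA5 exceeded GABRD in 24 of 24 animals by 1.19 on the log2 scale (SD 0.35, adjusted p = 2e-05, with the unadjusted 1e-05 the smallest the permutations can give). GABRD exceeded GABRB2 in 23 of 24 animals by 1.86 (SD 0.89, permutation test, adjusted p = 2e-05), and control 6 was the exception. GABRB2 exceeded GABRA3 in 19 of 24 animals by 0.20 (SD 0.35, permutation test, adjusted p = 0.0162), but not beyond the spread in controls alone (n = 8, exact permutation test, adjusted p = 0.0820). The neighbours GABRA3 and GABRB1 (0.16, SD 0.42, adjusted p = 0.0964) and GABRB1 and GABRA2 (0.15, SD 0.45, adjusted p = 0.104) did not differ beyond their spread, and GABRA2 exceeded GABRA4 in 24 of 24 animals by 0.87 (SD 0.47, adjusted p = 2e-05). The rank by mean TPM was the same in controls, LD and HD* animals. In VHD animals alone GABRB1 stood above GABRA3.

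**Figure D1:**
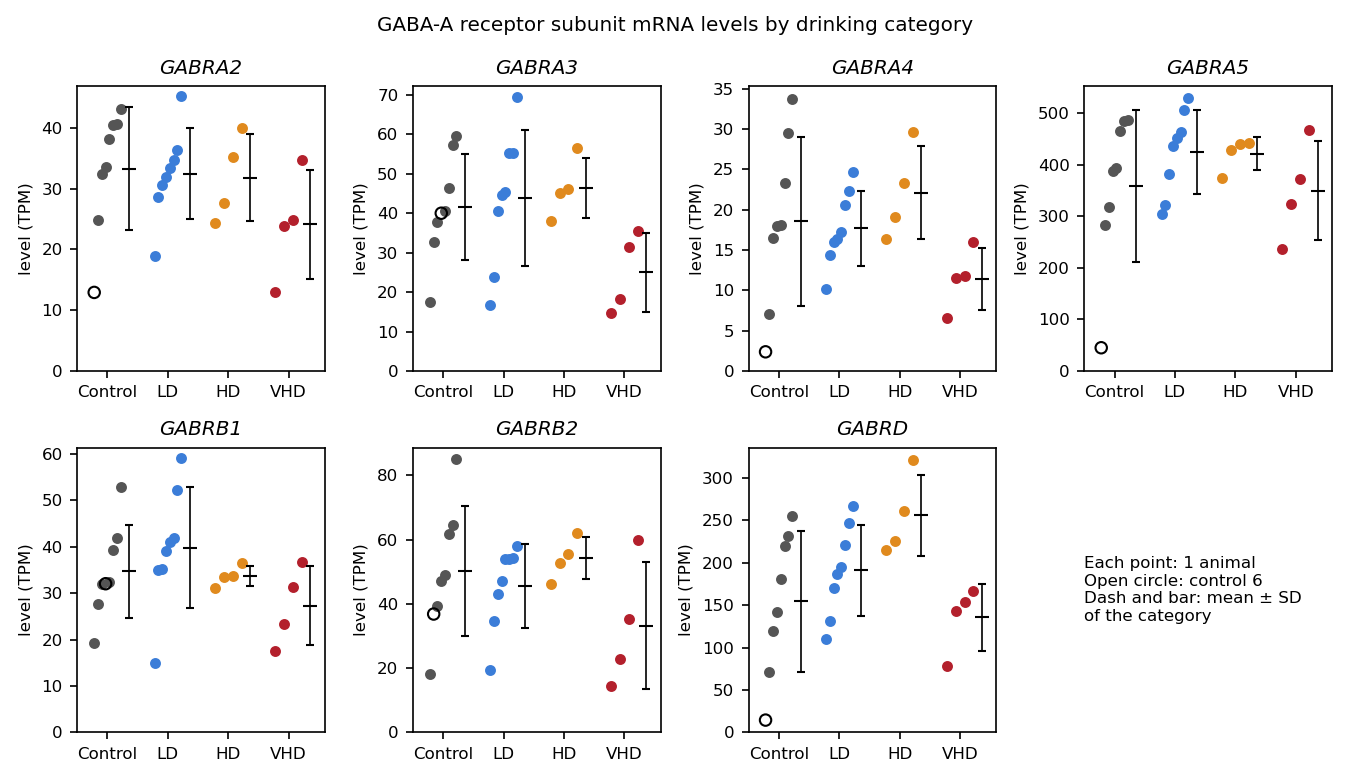
Level of each of the 7 subunit mRNAs (y axis, TPM from 0) in the 24 animals by drinking category (x axis); points are animals, dashes and bars the mean ± SD, and the open circle is control 6. GABRA3, GABRA4 and GABRD are lower in each of the 4 VHD animals than in each of the 4 HD animals, while controls and LD animals span wide, overlapping ranges.

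As a share of the summed TPM of the 7 genes, which does not depend on how a library was scaled, GABRA5 made up 52.2% ± 7.79 and GABRD 23.3% ± 5.47 (SD, n = 24). The lowest shares of both, 24.5% for GABRA5 and 7.90% for GABRD, were those of control 6. There GABRA3 took 21.8%, GABRB2 20.1% and GABRB1 17.4%, the highest shares of these genes in any animal. By category, GABRA5 made up 50.0% ± 11.7 in controls (n = 8), 53.7% ± 3.69 in LD animals (n = 8), 48.8% ± 2.31 in HD animals (n = 4) and 57.1% ± 6.31 in VHD animals (n = 4). GABRD made up 20.3% ± 6.22, 23.8% ± 3.06, 29.5% ± 4.34 and 22.2% ± 4.59 in the same order. Shares are described without a test. RefSeq genes of T2T-MMU8v2.0, a rhesus build other than the one the reads were aligned to, matched all 7 symbols and place most of them in subunit clusters. GABRA2, GABRA4 and GABRB1 lie together with GABRG1, and GABRB2 lies near GABRA6. GABRA5 lies next to GABRG3, and GABRA3 lies between GABRE and GABRQ. GABRD stands alone.

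**Figure D2:**
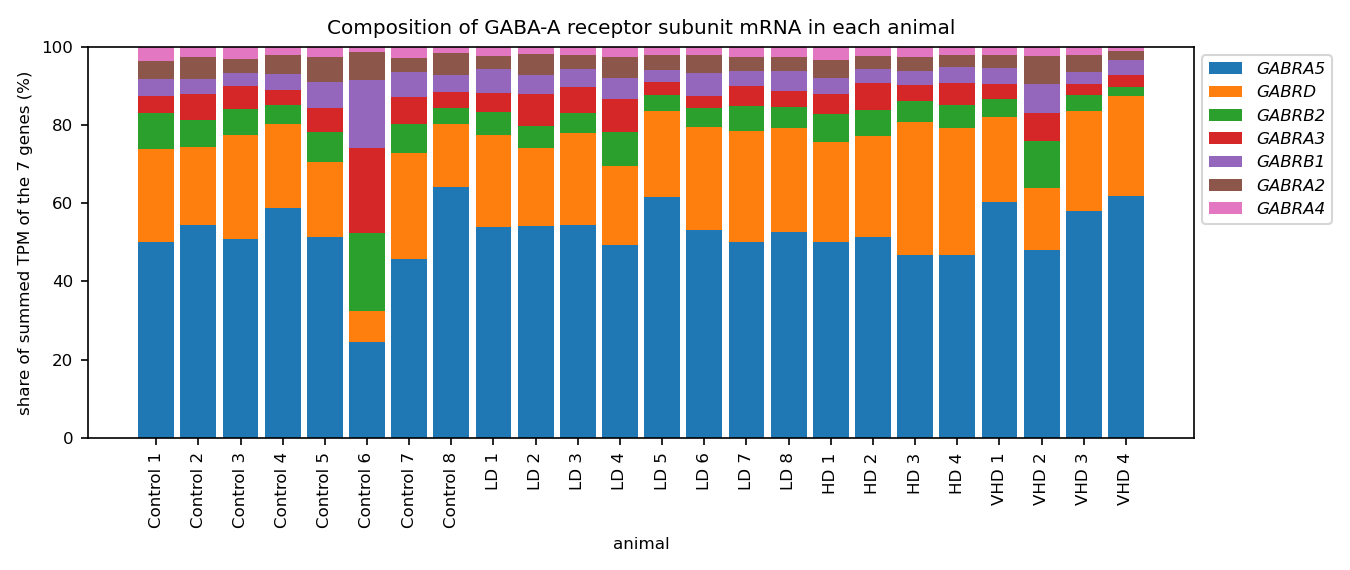
Share of each of the 7 genes in their summed TPM (y axis, %) for each animal (x axis), 1 bar per animal. GABRA5 and GABRD fill most of each bar except that of control 6, where they held 24.5% and 7.90%.

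HD* animals were compared with controls to ask whether subunit mRNA differed after heavy drinking. None of the 7 genes differed at an adjusted p under 0.05 (limma, n = 8 each), and 0 of 13637 genes did (0%); at an unadjusted p under 0.05 there were 0 members and 775 genes (5.68%). On the log2(TPM + 1) scale 3 members had higher means in HD* animals and 4 lower, with a median of −0.16 beside −0.12 for all genes. Without control 6, 1 was higher and 6 were lower, with a median of −0.25. The δ gene GABRD ranged from 14.5 to 255 TPM in controls (median 161) and from 78.6 to 320.5 TPM in HD* animals (median 191). Its log2 fold change was 0.59 (SE 0.41, adjusted p = 0.706), and without control 6 it was 0.17. GABRA5 ranged from 45.0 to 488 TPM in controls (median 391) and from 237 to 467 TPM in HD* animals (median 402). Its log2 fold change of 0.32 (SE 0.33, adjusted p = 0.730) became −0.064 without control 6, and that of GABRA4 went from 0.035 (SE 0.36, adjusted p = 0.971) to −0.29. With cohort in the model GABRD had 0.21, GABRA5 0.052 and GABRA4 −0.25. The groups overlapped for each gene, and the highest values of GABRA4 (33.8 TPM) and GABRB2 (85.1 TPM) were both in controls. The log2 fold changes of the remaining genes were −0.25 (SE 0.29) for GABRA3, −0.23 (SE 0.22) for GABRA2, −0.22 (SE 0.30) for GABRB2 and −0.16 (SE 0.22) for GABRB1, with adjusted p between 0.725 and 0.782. The value of GABRA2 was −0.41 without control 6 and −0.089 without VHD 4. The summed striatal neuron markers ran from 739 to 11202 TPM in controls and from 3209 to 10250 TPM in HD* animals, and their part in these differences was not tested.

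LD animals and controls did not differ in any of the 7 genes either (limma, adjusted p = 1.00 for each; 0 of 13637 genes, 0%; at an unadjusted p under 0.05, 0 members and 387 genes, 2.84%). The means of 6 genes were higher in LD animals and 1 was lower, with a median log2 fold change of 0.16 beside −0.025 for all genes. Without control 6, 4 were higher and 3 lower, with a median of 0.041. GABRD ranged from 109.5 to 267 TPM in LD animals (median 191), with a log2 fold change of 0.61 (SE 0.41) that was 0.19 without control 6. GABRA5 ranged from 304 to 529 TPM in LD animals (median 445), with a log2 fold change of 0.47 (SE 0.33) that was 0.076 without control 6. Both contrasts with controls share the same 8 controls. HD* against LD animals gave no call for any member (limma, adjusted p between 0.937 and 0.995; 0 of 13637 genes, 0%; at an unadjusted p under 0.05, 0 members and 147 genes, 1.08%). The means of all 7 genes were lower in HD* animals, by log2 fold changes from −0.32 (GABRB1, SE 0.22) to −0.017 (GABRD, SE 0.41), beside a median of −0.084 for all genes. With cohort in the model the 7 values ran from −0.72 (GABRA4, −0.14 without cohort) to −0.33 (GABRB1), with GABRD at −0.53, and none was called (adjusted p from 0.641 to 0.694). That of GABRD turned to 0.071 when libraries were rescaled by TMM, a trimmed mean of their log ratios.

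Within HD*, the VHD animals had lower levels of GABRA3, GABRA4 and GABRD than the HD animals, with log2 fold changes of −0.94, −0.92 and −0.95. The 3 genes were the members called (limma, adjusted p under 0.05, n = 4 each), against 1997 of all 13637 genes (14.6%; 11.4% called lower), so that changes in this contrast were widespread. At an unadjusted p under 0.05 there were 4 members, with GABRB2 added, and 32.7% of all genes (24.6% lower). The called genes were 441 higher and 1556 lower in VHD animals, and 1180 and 1416 after TMM rescaling. TMM moved the median over all genes tested from −0.17 to 0.0049, and that of HD* against controls from −0.12 to 3.97e-05. For the members the median without rescaling was −0.87, and all 7 were lower in VHD animals. Over the other settings on the same 8 animals, TMM among them, their weakest log2 fold changes were −0.10 (GABRA5), −0.14 (GABRB1), −0.24 (GABRA2) and −0.63 (GABRA4). Those of GABRB2, GABRD and GABRA3 were −0.67, −0.74 and −0.75.

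GABRD, the δ subunit, was at 226, 216, 320.5 and 261 TPM in HD animals 1 to 4 and at 167, 78.6, 143 and 154 TPM in VHD animals 1 to 4. Each VHD value lay below each HD value, and the log2 fold change was −0.95 (SE 0.22, limma, adjusted p = 0.0185). GABRA4, the α subunit that often joins δ, was at 29.6, 19.1, 23.3 and 16.4 TPM in HD and at 15.99, 11.7, 11.6 and 6.57 TPM in VHD animals. The lowest HD value lay just above the highest VHD value, and the log2 fold change was −0.92 (SE 0.26, limma, adjusted p = 0.0370). GABRA3 was at 46.1, 56.5, 38.0 and 45.1 TPM in HD and at 31.5, 35.5, 14.8 and 18.1 TPM in VHD animals. The groups again did not overlap, with a log2 fold change of −0.94 (SE 0.26, limma, adjusted p = 0.0322). Each of the 3 gave p = 0.0286 in an exact two-sided permutation test, the smallest that 70 assignments of 4 against 4 allow, and 2445 of all 13637 genes (17.9%) were likewise lower in VHD animals without overlap.

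The other 4 genes were not called. GABRB2, the β2 subunit of the most common synaptic receptors, was at 62.1, 55.5, 52.8 and 46.3 TPM in HD animals and at 35.2, 60.0, 22.9 and 14.5 TPM in VHD animals. VHD 2 lay among the HD values while the other 3 lay below them, and the log2 fold change was −0.87 (SE 0.33, limma, adjusted p = 0.0915). GABRA2 had a log2 fold change of −0.44 (SE 0.27, adjusted p = 0.270), GABRB1 of −0.34 (SE 0.21, adjusted p = 0.280) and GABRA5 of −0.31 (SE 0.18, adjusted p = 0.264). GABRA5, at 441, 429, 443 and 375 TPM in HD and 467, 237, 324 and 374 TPM in VHD animals, had both its highest and its lowest value in VHD animals of cohort 5.

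Neuronal markers moved in the same contrast. The summed striatal neuron markers were 8675 to 10250 TPM in HD and 3209 to 5944 TPM in VHD animals, and their score, the mean of centred log2(TPM + 1) over the 10 genes, was 1.08 lower in VHD animals (exact permutation, p = 0.0286, adjusted over 28 comparisons 0.400). The summed pan-neuronal markers (5 of 5 genes detected) were 2570 to 3142 TPM in HD and 1211 to 2661 TPM in VHD animals, with a score 0.71 lower (exact permutation, p = 0.0286, adjusted 0.400). Astrocyte markers were 1416 to 2604 TPM in HD and 3461 to 6032 TPM in VHD animals (6 of 6 genes detected, no overlap of the sums; score difference 0.41, exact permutation, p = 0.171). Scores of oligodendrocyte (−0.10, 9 of 9 genes detected), microglia (0.23, 5 of 5), endothelial (−0.23, 4 of 5) and cortical excitatory neuron markers (−1.29, 5 of 5) gave exact permutation p of 0.657, 0.286, 0.0857 and 0.371. The part of these markers in the subunit differences was not tested. Within cohorts 5 and 7a (2 HD and 2 VHD animals each, where no exact p can go below 0.333), the log2 differences of GABRD were −0.94 and −0.96, those of GABRA4 −0.76 and −1.08, and those of GABRA3 −0.60 and −1.29. GABRB2 differed by −0.35 and −1.39, and GABRB1 by 0.014 and −0.70.

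The call for GABRD did not hold after TMM rescaling (−0.74, adjusted p = 0.117), and none of the 3 calls held without the filter on low values (adjusted p = 0.0568 for GABRD, 0.0816 for GABRA3 and 0.0828 for GABRA4). GABRD also lost its call without HD 3, HD 4 or VHD 3 (adjusted p up to 0.0653), GABRA3 and GABRA4 without any 1 of the 4 HD animals, VHD 3 or VHD 4 (up to 0.106 and 0.109), and GABRB2 gained one without VHD 2 (0.00516) or with cohort in the model (0.0320).

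**Figure D3:**
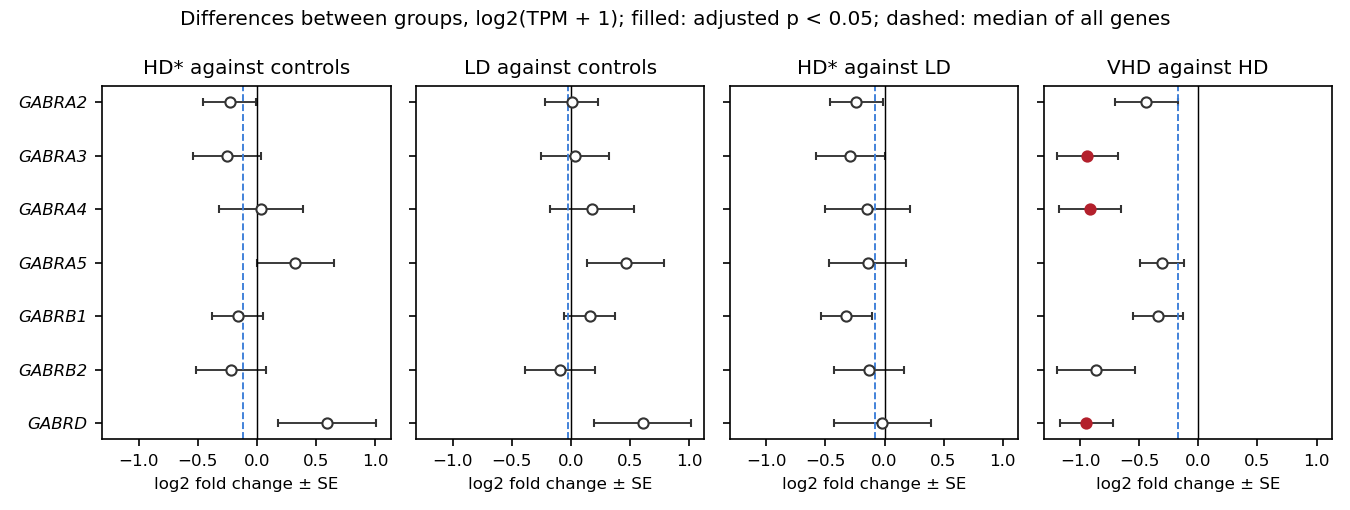
Log2 fold change on the log2(TPM + 1) scale (x axis) with its SE for each of the 7 genes (y axis) in 4 comparisons; filled points have an adjusted p under 0.05, and the dashed line is the median of all genes tested. The 3 filled points, GABRA3, GABRA4 and GABRD, are in VHD against HD, near −0.94, −0.92 and −0.95.

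Of 9 other GABA-A receptor subunit genes examined, 4 reached a mean of 1 TPM. They were GABRG1 (γ1), found in glia as well as in neurons, at 19.5 ± 7.33, GABRQ (θ) at 13.9 ± 10.6, GABRE (ε) at 10.8 ± 7.41 and GABRG3 (γ3) at 5.86 ± 1.98 TPM (SD, n = 24). None was called in HD* against controls, LD against controls or HD* against LD animals (limma; 0 at an unadjusted p under 0.05 in each). In VHD against HD, 1 of the 4 was called, where 14.6% of all genes were. GABRG3, named because its call makes up this count, averaged 6.96 ± 0.63 TPM in HD and 3.90 ± 1.21 TPM in VHD animals (n = 4 each; log2 fold change −0.73, SE 0.22, limma, adjusted p = 0.0445). Whether its call held with other settings or without single animals is not given. GABRQ had −0.89 (SE 0.48, adjusted p = 0.221), GABRE −0.58 (SE 0.36, adjusted p = 0.278) and GABRG1 0.33 (SE 0.33, adjusted p = 0.509).

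Of 19 genes whose products assemble, anchor or traffic GABA-A receptors or set the chloride gradient they use, 18 were tested. In HD* against controls 0 were called (limma; 1 at an unadjusted p under 0.05). The smallest p was that of SLC12A2, the chloride importer NKCC1 (log2 fold change −0.55, SE 0.23, adjusted p = 0.706), followed by RDX, the radixin that anchors α5 receptors (−0.30, SE 0.15, adjusted p = 0.706), and PLCL1, which takes part in receptor trafficking (−0.41, SE 0.24, adjusted p = 0.706). In VHD against HD, 8 of the 18 were called, all lower (14.6% of all genes were called, 11.4% lower), namely GPHN, NLGN2, LHFPL4, SHISA7, CLPTM1, PLCL2, UBQLN1 and SLC12A5, with a median log2 fold change of −0.68 over the 18 beside −0.17 for all genes. They include gephyrin (GPHN), the scaffold of inhibitory synapses, neuroligin-2 (NLGN2), the auxiliary subunits LHFPL4 and SHISA7, and the chloride exporter KCC2 (SLC12A5), which averaged 260.4 ± 16.05 TPM in HD and 129 ± 36.7 TPM in VHD animals (log2 fold change −1.05, SE 0.18, limma, adjusted p = 0.00640). GPHN lay nearest the threshold (limma, adjusted p = 0.0478). Whether the 8 calls held with other settings or without single animals is not given.

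The slope of each subunit on daily intake was fitted in the 16 drinkers with group (LD or HD*) in the model. HD and VHD were not separated in it, and intake ran from 2.74 to 3.09 g/kg in HD and from 3.09 to 3.78 g/kg in VHD animals. Within HD*, a relation to intake and the VHD against HD difference therefore cannot be told apart. All 7 slopes were negative, from −0.22 (GABRA5, SE 0.18) to −0.81 (GABRA3, SE 0.31) on the log2 scale per g/kg, and the median slope of all genes was −0.11. None was called (limma; 0 of 13637 genes, 0%). At an unadjusted p under 0.05 there were 2 members, GABRA3 and GABRA2 (−0.49, SE 0.21, adjusted p = 0.498 for both), and 1107 genes (8.12%). Within LD animals GABRA3 gave Pearson's r = −0.70 (exact permutation, p = 0.0514, adjusted over 14 relations 0.499) and Spearman's rho = −0.87 (exact permutation, p = 0.00744, adjusted 0.104), and r = −0.78 without the 2 animals farthest from the median intake (n = 8). In HD* animals it gave r = −0.31 (exact permutation, p = 0.446) and rho = −0.59 (p = 0.135). Over the 7 genes r ran from −0.70 to −0.13 in LD and from −0.54 to −0.083 in HD* animals. None of the 14 relations passed an adjusted p of 0.05 by either measure. GABRA4 in HD* animals gave rho = −0.77 (exact permutation, p = 0.0314, adjusted 0.220) and r = −0.54 (p = 0.170), and r = −0.87 without the 2 animals farthest from the median intake.

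The animals belonged to 4 cohorts. Cohort 4 held LD animals only, cohort 5 controls and HD* animals, cohort 7a all categories, and cohort 7b controls and LD animals. With group in the model, cohort was not called for any member (limma F-test, adjusted p between 0.540 and 0.657; 0 of 13637 genes, 0%; at an unadjusted p under 0.05, 0 members and 1140 genes, 8.36%). In cohort 5 the log2 difference of HD* animals from controls was −0.33 for GABRD (exact permutation, p = 0.571, 4 against 3) and in cohort 7a it was 0.68 (p = 0.400, 4 against 2). The difference between these effects was 1.01 (SE 0.68, limma, adjusted p = 1.00; 0 of 13637 genes, 0%; at an unadjusted p under 0.05, 0 members and 294 genes, 2.16%). For GABRA4 the 2 cohorts gave −0.51 and 0.017, and for GABRA5 −0.22 and 0.17. GABRA2, GABRA3 and GABRB2 were lower in HD* animals in both cohorts (−0.31 and −0.31, −0.20 and −0.31, −0.29 and −0.18), with exact permutation p from 0.200 to 0.733.

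Across the 24 animals most pairs of subunit mRNAs were correlated, which was not shown to be particular to subunit genes. By Pearson correlation GABRA5, GABRD and GABRA4 were close to each other, as were GABRB2, GABRA3 and GABRB1, but the 2 sets were not separate once control 6 was left out. Of 21 pairs, 15 had a Pearson correlation of log2(TPM + 1) with an adjusted p under 0.05 (permutation test, adjusted over 21), 15 after removal of group means, 15 after removal of cohort means, 11 after TMM rescaling and 18 without control 6. The median r of the 21 pairs was 0.54. The median gene of all those tested had r = 0.45 with GABRB2, 0.40 with GABRA3, 0.33 with GABRA2 and with GABRB1. It had 0.23 with GABRA4, 0.026 with GABRD and −0.0054 with GABRA5. The share of all gene pairs that would pass was not computed. GABRA5 and GABRD gave r = 0.93 (permutation, p = 1e-05, the smallest possible) and rho = 0.71 (p = 0.00016). Without the 2 animals farthest from the median of GABRA5, r was 0.77. In the other pairs, too, the farthest animals were those of the gene named first. GABRA4 and GABRD gave r = 0.87 (permutation, p = 1e-05) and rho = 0.77 (p = 2e-05), with r = 0.81 without the 2 farthest animals. GABRA3 and GABRB2 gave r = 0.83 (permutation, p = 1e-05) and rho = 0.70 (p = 0.00019), with r = 0.78 without the 2 farthest animals. Across the 2 sets GABRA4 and GABRB2 gave r = 0.70 (permutation, p = 0.00025) and rho = 0.80 (p = 2e-05), the highest rho of the 21 pairs, and r = 0.84 without the 2 farthest animals. Without control 6 this pair also had the highest r, 0.88, against 0.82 for GABRA5 and GABRD, 0.74 for GABRA4 and GABRD and 0.67 for GABRA4 and GABRA5, and GABRA3 and GABRA4 had 0.71. The lowest r was that of GABRA3 and GABRA5 (r = 0.17, permutation, p = 0.420; rho = 0.38, p = 0.0701), and it was 0.48 without control 6. GABRA2 gave r = 0.79 to GABRA4 and 0.70 to GABRB2, and the order turned without control 6 (0.70 and 0.78). The neighbouring genes GABRA4 and GABRB1 gave r = 0.48, below the 0.87 of GABRA4 with the separately placed GABRD. Without control 6 these values were 0.63 and 0.74, and their difference was not tested.

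**Figure D4:**
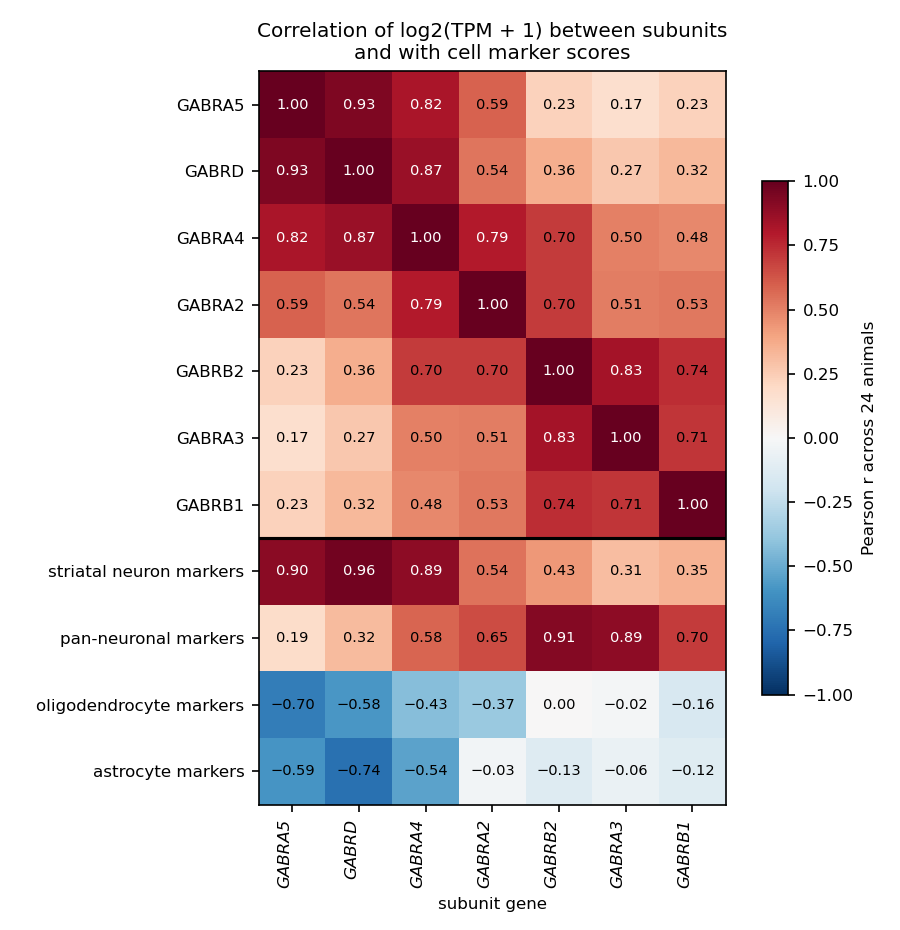
Pearson r of log2(TPM + 1) across the 24 animals between pairs of the 7 subunit genes (upper 7 rows) and of each gene with 4 cell marker scores (lower 4 rows); red is positive and blue negative. GABRA5, GABRD and GABRA4 give 0.82 to 0.93 with each other, GABRB2, GABRA3 and GABRB1 give 0.71 to 0.83, and GABRA4 with GABRB2 gives 0.70, which becomes 0.88 without control 6.

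Each subunit was also compared with 4 cell marker scores, in 28 relations tested together. The farthest animals here are those farthest from the median of the marker score. GABRD followed the striatal neuron score with r = 0.96 (permutation, p = 1e-05, adjusted 4.67e-05; rho = 0.90, p = 1e-05), r = 0.90 without the 2 farthest animals and r = 0.91 without control 6. GABRA5 gave r = 0.90 (permutation, p = 1e-05; rho = 0.77, p = 4e-05; 0.78 without the 2 farthest) and GABRA4 r = 0.89 (permutation, p = 1e-05; rho = 0.84, p = 1e-05; 0.75 without the 2 farthest). GABRB2 followed the pan-neuronal score with r = 0.91 (permutation, p = 1e-05; rho = 0.78, p = 4e-05; 0.85 without the 2 farthest), and GABRA3 did with r = 0.89 (permutation, p = 1e-05; rho = 0.80, p = 1e-05; 0.86 without the 2 farthest). GABRB1 gave r = 0.70 there (permutation, p = 0.00027; rho = 0.47, p = 0.0215; 0.59 without the 2 farthest). GABRA4 followed the pan-neuronal score as well (r = 0.58, permutation, p = 0.00353, adjusted 0.00899; rho = 0.60, p = 0.00229), with r = 0.49 without the 2 farthest animals and 0.75 without control 6. GABRA2 gave r = 0.65 there (permutation, p = 0.00127; rho = 0.53, p = 0.00952; 0.43 without the 2 farthest), and r = 0.54 with the striatal neuron score, which was 0.26 without control 6. GABRB2 gave r = 0.43 with the striatal neuron score (permutation, p = 0.0393, adjusted 0.0688; rho = 0.54, p = 0.00772), and 0.56 without control 6. The lower values rose when control 6 was left out. With the pan-neuronal score GABRA5 went from r = 0.19 to 0.36 and GABRD from 0.32 to 0.48 (rho = 0.51, permutation, p = 0.0109, over all animals). With the striatal neuron score GABRA3 went from r = 0.31 to 0.50 (rho = 0.42, permutation, p = 0.0397, over all animals) and GABRB1 from 0.35 to 0.49. GABRD fell as astrocyte markers rose (r = −0.74, permutation, p = 1e-05; rho = −0.83, p = 1e-05; −0.74 without the 2 farthest). So did GABRA5 (r = −0.59, permutation, adjusted p = 0.00064, and −0.62 without control 6). GABRA4 did as well (r = −0.54, permutation, adjusted p = 0.0117, and −0.41 without control 6). With oligodendrocyte markers GABRD gave r = −0.58 (permutation, adjusted p = 0.00964), which was −0.27 without control 6. GABRA5 gave r = −0.70 with oligodendrocyte markers (permutation, p = 0.00023; rho = −0.55, p = 0.00657), which was −0.48 without the 2 farthest animals.

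**Figure D5:**
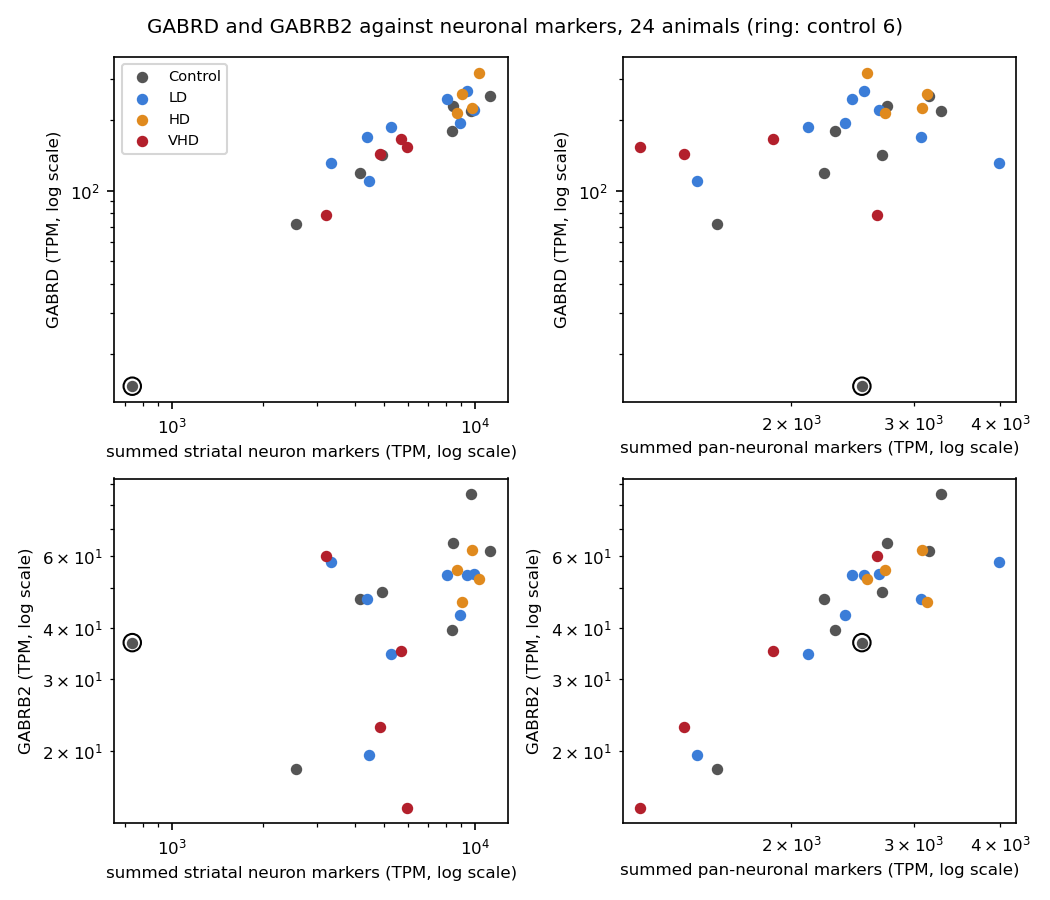
GABRD (upper panels) and GABRB2 (lower panels) in TPM against the summed striatal neuron markers (left) and pan-neuronal markers (right) in TPM, all axes logarithmic; points are the 24 animals coloured by category, and the ring marks control 6. GABRD lines up with striatal neuron markers down to control 6 at 739 and 14.5 TPM, and GABRB2 lines up with pan-neuronal markers.

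For each subunit the 3 genes of the 13637 whose log2(TPM + 1) correlated best with it across the 24 animals are given as a description; they share the libraries and their scaling. For GABRD they were KCNJ4, an inward rectifier potassium channel (r = 0.98), KIAA1211L (0.98) and ITPKA, an inositol trisphosphate kinase of dendritic spines (0.97), where the median gene had r = 0.026. For GABRA5 they were ICAM5, the telencephalic neuronal adhesion molecule (0.99), C19orf26 (0.97) and PDE2A, a cyclic nucleotide phosphodiesterase (0.96), the last falling to 0.76 without control 6. For GABRA4 they were B3GALT1 (0.98), MTPN (0.98) and PKIA, an inhibitor of protein kinase A (0.98), with a median gene at 0.23. For GABRA3 they were SCAMP5, a synaptic vesicle protein (0.94), SLC6A17, a vesicular amino acid transporter (0.94), and PRMT5 (0.94). For GABRB2 they were UBE4A (0.97), NCOA7 (0.97) and the membrane protease gene ADAM10 (0.97), with a median gene at 0.45. For GABRA2 they were TOMM20, a mitochondrial import receptor (0.91), FZD3 (0.91) and ZNF706 (0.91). GABRB1 had the weakest likeness of the 7, with PFAS, an enzyme of purine synthesis (0.87), ZNF786 (0.85) and HPS4 (0.85).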

How the data were processed

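NAcc core RNA of 24 animals was measured once per animal. The authors prepared polyA-selected libraries, aligned reads to the MacaM assembly with STAR 2.5.2b, counted uniquely aligned reads with HTSeq 0.6.1p1 and used DESeq2 for their tests. The values the authors deposited are named as normalized counts and were taken as TPM, because they add up to between 999998 and 1000000 per animal over 17208 symbols (27 of them turned into dates) and the smallest values above 0 differ between genes of a library, as scaling by gene would give. The gene lengths are not given in the sources used here, and the order of levels between genes depends on them. The depth of single animals was not read from the values. The paper and the public record give different strand and pairing for the libraries.

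Categories, cohorts and intakes came from the labels. Replicates are separate animals. The 13637 genes averaging 1 TPM or more were tested on log2(TPM + 1) with limma 3.58.1 in R 4.3.3 (empirical Bayes with a trend, Benjamini-Hochberg, adjusted p under 0.05): a 3-group model of all animals, a VHD against HD model of 8 animals, a slope on intake, a cohort F-test and an interaction with cohort. A pseudocount of 1 understates changes of low genes. Permutation tests were two-sided, exact or with 100000 resamples (Python 3.11.15, numpy 2.4.6, scipy 1.17.1, pandas 2.3.3; plots, matplotlib 3.10.9). The limma tests were also run on simulated data in which each gene varied independently. Those runs cannot show how the tests behave where genes vary together. Genes named are the 7 members, other subunits examined that averaged 10 TPM or more (some genes are not reported here), the 3 receptor partners with the smallest p in HD* against controls, and the 3 genes most like each member. The partner genes called in VHD against HD and GABRG3 were named after their values were seen. The members and all lists were chosen with earlier results of these data known. Alternatives were pseudocounts of 0.1 and 8, no filter and a filter of 10 TPM, TMM rescaling (trimming 30% of M and 5% of A), cohort or oligodendrocyte score as covariates, only the groups compared, cohorts holding both groups, and each animal left out.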

Additional observations from a re-analysis of the deposited data

Results flagged for a closer look

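In 50 sets of 1 gene in 1 group of 8 animals or 4 animals, a value was picked out where its gap to the nearest other animal was large for the range of the group (Dixon's 95% critical value); chance picks out about 1 in 20, and 5 were picked out. GABRA5 was 45.0 TPM in control 6 and 284 to 488 TPM in the other controls, in the library with the lowest striatal neuron markers. GABRE, encoding ε, was 31.5 TPM in the same library and 4.60 to 11.7 TPM in the other controls. GABRE was also 32.1 TPM in LD 4, the animal with the highest cortical excitatory neuron markers, and 5.00 to 16.5 TPM in the other LD animals. GABRG1 was 42.6 TPM in control 5 and 13.2 to 22.8 TPM in the other controls. GABRQ was 32.6 TPM in HD 4 and 3.53 to 15.4 TPM in the other HD* animals. The part of cell content in these values was not tested.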

How the results depend on the processing

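Groups were compared without pairing, because each group held different animals. In HD*, LD and control contrasts, 0 genes were called under every alternative run. The direction of a member turned in uncalled results only. In HD* against controls GABRA4 turned to −0.034 with a pseudocount of 8, −0.25 with cohort and −0.14 with the oligodendrocyte score as covariate, and −0.34 in cohorts 5 and 7a, where GABRA5 was −0.067. In LD against controls GABRA2 turned to −0.0026 with a pseudocount of 8 and, with the oligodendrocyte score, to −0.14, as did GABRA4 to −0.060; GABRB2 turned to 0.12 with cohort as covariate and 0.11 in cohorts 7a and 7b. In HD* against LD animals GABRD turned to 0.071 with TMM rescaling and 0.071 with the oligodendrocyte score. With 1 animal left out, HD* against controls ran from −0.29 to 0.19 for GABRA4 and from −0.064 to 0.42 for GABRA5. LD against controls ran from −0.17 to 0.11 for GABRA2, −0.12 to 0.21 for GABRA3, −0.14 to 0.34 for GABRA4 and −0.28 to 0.070 for GABRB2. HD* against LD ran from −0.27 to 0.015 for GABRA4, −0.29 to 0.070 for GABRB2 and −0.13 to 0.15 for GABRD. Genes called in VHD against HD ran from 476 (without VHD 3) to 4651 (without VHD 2), with 607 without HD 3, 681 without HD 2, 723 without HD 4 and 1094 without HD 1, and genes called for intake from 0 to 1 (without LD 2). The other alternatives gave 1408 to 2757 genes in VHD against HD, and all 7 members were lower in each. In controls alone 3 of 6 neighbours in level differed, against 4 in all animals, and the pair that no longer did was GABRB2 and GABRA3. The cause of these changes was not tested.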
